A study of Arabidopsis thaliana with 6 samples.

Results

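CHLI2, HEME1 and GSA1 are 3 nuclear genes of tetrapyrrole and chlorophyll synthesis in Arabidopsis thaliana. They were chosen by gene symbol in the probe-to-gene table, where each symbol was paired with 1 probe set, so the 3 genes correspond to 3 of the 22746 probe sets that are not controls. Their transcripts were quantified with Affymetrix ATH1 arrays in accession Landsberg erecta, without any mutant or treatment, from plants 6 weeks old. The stages were closed buds collected whole just before pollination, open pollinated flowers collected whole, and siliques taken 2 d after pollination and freed of the withering flower parts, with 2 arrays per stage. Each sample was pooled from 12 plants, and replicates 1 and 2 are separate runs of the whole experiment.

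Tetrapyrroles are ring-shaped pigments and cofactors that include chlorophyll, heme and siroheme. In plants the pathway runs in plastids: glutamate is turned into aminolevulinic acid (ALA), ALA is built up to protoporphyrin, and the insertion of magnesium or iron then sends the ring towards chlorophyll or heme. GSA1 encodes a glutamate semialdehyde aminotransferase, which makes ALA. HEME1 encodes a uroporphyrinogen decarboxylase of the middle part of the pathway, which is shared by chlorophyll and heme synthesis. CHLI2 encodes an ATPase subunit of magnesium chelatase, the enzyme at the entry of the chlorophyll branch. Sepals, carpels and silique walls are green, whereas open petals are white.

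Values are MAS5 signal intensities on a linear scale, a relative brightness per probe set, and no level is set here against that of another probe set. The stages differ in the organs harvested, so in these whole-organ samples fewer cells of a type and less RNA per cell cannot be told apart. Of the 4 organ marker lists, chosen like the other lists with earlier results of these data known, 3 followed the labelled stages. This is therefore no independent check of the labels. The summed signal of 4 measured tapetum genes (6 listed) was 2764 and 3920 in buds but 79.9 to 127 elsewhere. That of 3 nectary and open-flower genes (4 listed) was 2058 and 3018 in flowers but 39.2 to 302 elsewhere. That of 2 seed coat genes (4 listed) was 1413 and 1551 in siliques but 15.4 to 317 elsewhere. The summed signal of 5 pollen genes was 519 and 280 in buds, 244 and 290 in flowers, and 34.9 and 89.1 in siliques, so it did not separate buds from flowers and was lowest in siliques. Its members differed in direction between flowers and buds: ANX2 had a log2 change of 1.47 that did not pass (limma, adjusted p = 0.0709). AGL104 (−1.93, adjusted p = 0.00862) and AGL66 (−1.76, adjusted p = 0.0443) were lower in flowers. MGH3 had a log2 change of −1.18 that did not pass (adjusted p = 0.128), and ANX1 was not tested. The part of these organ differences in the results was not tested. Log2 signals correlated at r = 0.936 to 0.963 between arrays of 1 stage and at 0.733 to 0.870 between stages. On siliques 2 the spiked-in controls averaged 1.78 times their mean on the other arrays. The signal of the 3' probe set over that of the 5' one, a measure of RNA integrity, was 1.93 and 1.91 for ubiquitin in flowers, above all other arrays (1.45 to 1.77). For actin this ratio was 10.0 and 7.67 in flowers and 5.53 to 9.39 on the others, with flowers 1 the highest, and for GAPDH it was 1.61 and 1.45 in flowers and 1.12 to 1.67 on the others. The part of these technical measures in the results was not tested, beyond leaving out each array in turn.

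GSA1 (AT5G63570, probe set 247392_at) had signals of 158 and 248 in buds, 232 and 282 in flowers, and 453 and 516 in siliques. Both silique arrays lay above all bud and flower arrays, while the bud and flower arrays overlapped. HEME1 (AT3G14930, probe set 257219_at) had signals of 123 and 180 in buds, 132 and 136 in flowers, and 319 and 332 in siliques. Its flower arrays lay between its bud arrays, and the silique arrays stood clear of both stages. CHLI2 (AT5G45930, probe set 248920_at) had signals of 66.5 and 78.7 in buds, 70.3 and 94.9 in flowers, and 212 and 209 in siliques. For this gene too the bud and flower arrays overlapped and the silique arrays did not overlap with either. All 3 genes reached the minimum signal of 50 on every array, so none was tested only because it was high in 1 stage.

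**Figure D1:**
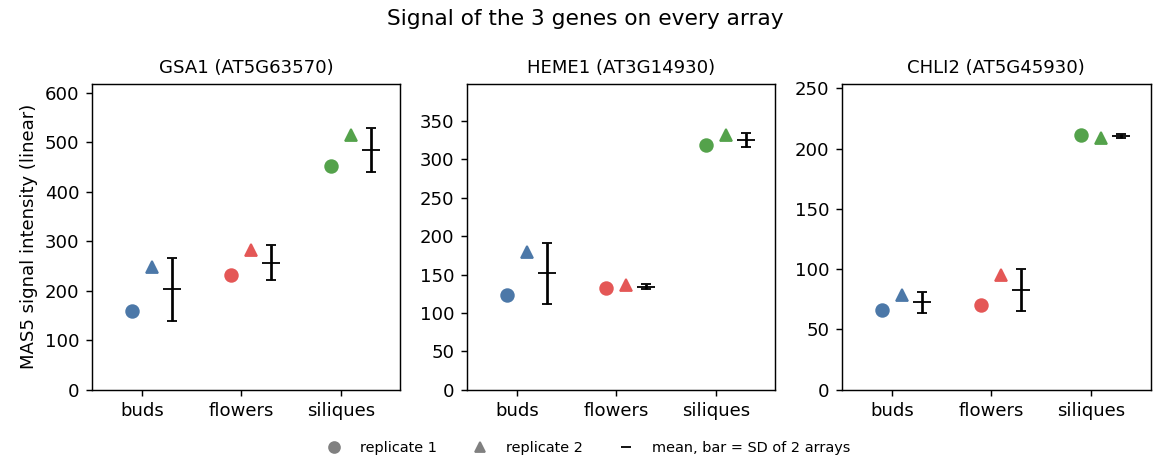
MAS5 signal intensity (linear axis from 0) of GSA1, HEME1 and CHLI2 on each of the 6 arrays, by stage, with circles for replicate 1, triangles for replicate 2, and a dash with a bar for the mean and SD of 2 arrays. In each panel both silique arrays lie above all bud and flower arrays, and the bud and flower arrays overlap.

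The comparison of siliques with open flowers asks what changes as the flower becomes a young fruit. All 3 genes were higher in siliques. CHLI2 averaged 210 ± 2 in siliques and 82.6 ± 17.4 in flowers (SD, n = 2 each), a log2 change of 1.26 ± 0.18 (SE) with a 95% interval of 0.83 to 1.69 (limma, adjusted p = 0.0102). HEME1 averaged 326 ± 9 in siliques and 134 ± 3 in flowers (SD, n = 2 each), a log2 change of 1.22 ± 0.19 (0.76 to 1.68, adjusted p = 0.0142). GSA1 averaged 485 ± 44 in siliques and 257 ± 35 in flowers (SD, n = 2 each), a log2 change of 0.89 ± 0.23 (0.34 to 1.45, adjusted p = 0.0486), just inside the threshold. Changes are on the scale of log2(signal + 10), which slightly understates the ratio of the signals themselves: in replicates 1 and 2 these ratios were 3.0 and 2.2 for CHLI2, 2.4 and 2.4 for HEME1, and 2.0 and 1.8 for GSA1.

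Among all 12075 probe sets tested, 7.23% were called higher in siliques than in flowers and 7.45% lower, 14.7% in all, with a median log2 change of 0.02. A larger rise was measured for 1.53% of probe sets in the case of CHLI2, 1.71% for HEME1 and 4.07% for GSA1. The calls rest on few arrays. That of CHLI2 was lost without flowers 1 (adjusted p = 0.0579) or siliques 1 (0.0743), that of HEME1 after removal of any 1 of the 4 arrays compared (0.0639 to 0.0859), and that of GSA1 likewise (0.118 to 0.218). GSA1 also lost its call with the smaller offset (0.0529), no filter (0.0741), quantile (0.0669) or cyclic loess (0.0671) normalization or no intensity trend (0.0555).

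**Figure D2:**
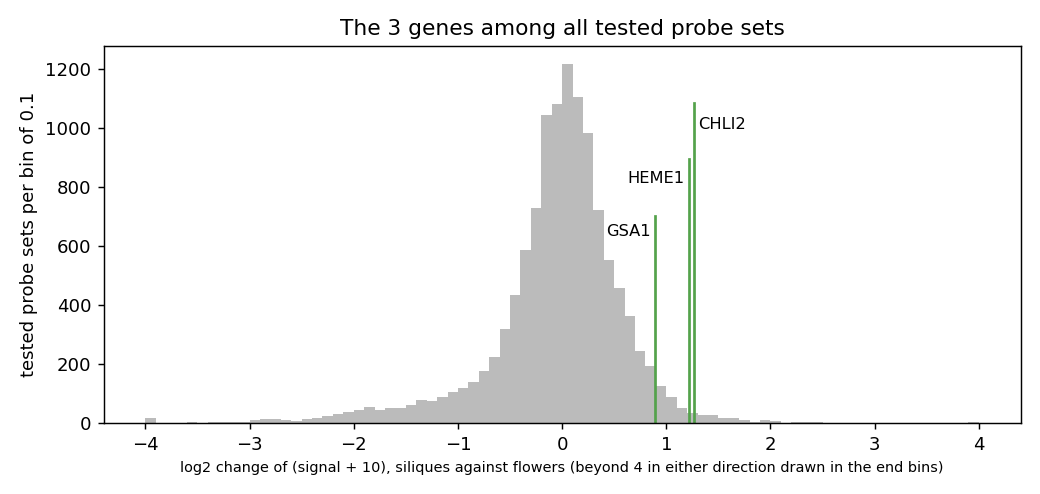
Number of tested probe sets in bins of 0.1 of the log2 change of (signal + 10) between siliques and flowers (grey bars), with green lines at the changes of GSA1, HEME1 and CHLI2. The 3 genes lie on the right flank, at 0.89, 1.22 and 1.26, whereas the median of all tested probe sets is 0.02.

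Siliques were also higher than closed buds for all 3 genes, which sets the fruit against the stage before opening. CHLI2 had 210 ± 2 in siliques and 72.6 ± 8.7 in buds (SD, n = 2 each), a log2 change of 1.42 ± 0.18 (0.99 to 1.85, adjusted p = 0.00353). HEME1 had 326 ± 9 in siliques and 152 ± 40 in buds (SD, n = 2 each), a log2 change of 1.08 ± 0.19 (0.62 to 1.54, adjusted p = 0.0135). GSA1 had 485 ± 44 in siliques and 203 ± 64 in buds (SD, n = 2 each), a log2 change of 1.24 ± 0.23 (0.69 to 1.8, adjusted p = 0.0157). The background of probe sets called higher was 7.03%, with 8.52% called lower and 15.6% in all. CHLI2 kept its call without any 1 array (adjusted p at most 0.0304). HEME1 lost it without siliques 1 (0.0694) or siliques 2 (0.0795), and GSA1 without siliques 1 (0.0654) or siliques 2 (0.0926).

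The bud replicates were farther apart than the silique replicates. Replicate 2 over replicate 1 was 1.14 in siliques and 1.57 in buds for GSA1, 1.04 in siliques and 1.46 in buds for HEME1, and 0.987 in siliques and 1.18 in buds for CHLI2. The rise of GSA1 over buds was accordingly 1.46 in replicate 1 and 1.03 in replicate 2 on the log2 scale, and that of HEME1 was 1.3 and 0.85.

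Between open flowers and closed buds no difference was detected for any of the 3 genes. The log2 change was 0.16 ± 0.18 for CHLI2 (−0.27 to 0.59, adjusted p = 0.647), −0.14 ± 0.19 for HEME1 (−0.60 to 0.32, adjusted p = 0.710) and 0.35 ± 0.23 for GSA1 (−0.21 to 0.90, adjusted p = 0.410). In this comparison 4.53% of probe sets were called higher and 6.13% lower, 10.7% in all. The intervals still allow a moderate change, for GSA1 a rise as large as that measured in siliques against flowers. The order of levels was therefore buds and flowers without a resolved difference, and siliques above both.

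Whether the change into siliques differed from the change at flower opening was tested as their difference within the same model, a comparison added after the signals had been seen. The difference was 1.36 ± 0.33 for HEME1 (adjusted p = 0.0498), 1.11 ± 0.31 for CHLI2 (adjusted p = 0.0694) and 0.55 ± 0.40 for GSA1 (adjusted p = 0.435), where 5.29% of all tested probe sets were called in the positive direction and 5.46% in the negative, 10.7% in all. HEME1 passed by a narrow margin and lost the call in 11 of 16 alternatives (adjusted p from 0.0168 to 0.235 over all of them). Both changes share the flower arrays.

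The wider pathway was described from 4 lists of genes covering ALA synthesis, the steps from ALA to protoporphyrin, the chlorophyll branch, and the heme, bilin and siroheme branch. Of the 42 listed genes, 14 had a probe set of their own, one that the probe-to-gene table lists for that gene alone. Of these, 9 passed the filter, each with a signal of at least 50 on all 6 arrays. The other 5 were below it: HEMA2 and HEMA3, which encode glutamyl-tRNA reductases, hemb2 and hemf2, further copies of the ALA dehydratase and coproporphyrinogen oxidase genes, and AT5G63290. Their signals ran from 1.21 to 38.6. The remaining listed genes, among them HEMA1, GSA2, CHLI1, CHLD, CHLH and GUN4, had no probe set of their own. The low signals of HEMA2 and HEMA3 therefore do not give the level of HEMA1. Among all probe sets that are not controls, 8730 had no gene listed and 503 had several. Whether some of these belong to the remaining genes was not tested.

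In siliques against flowers, 5 of the 9 genes rose, 0 fell and 4 did not pass, where 7.23% of all tested probe sets rose; the median log2 change of the 9 was 0.89. In siliques against buds, again 5 rose, 0 fell and 4 did not pass (median 0.90), where 7.03% of all tested probe sets rose. In flowers against buds none of the 9 passed (median −0.01), where 10.7% of all tested probe sets were called in either direction. These counts include the 3 genes themselves, which were chosen with results of these data known. Of the other 6 genes, 2 rose in siliques against flowers and 2 in siliques against buds. For 7 of the 9 genes both silique arrays lay above all bud and flower arrays, as they did for 20.6% of all tested probe sets.

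**Figure D3:**
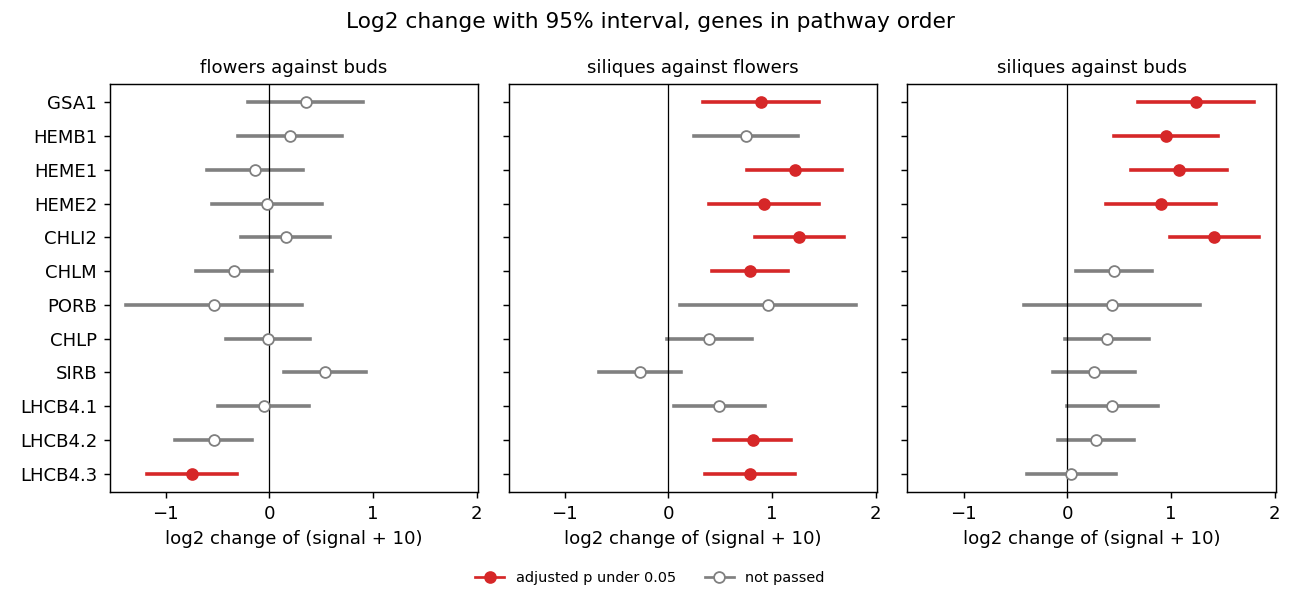
Log2 change of (signal + 10) with its 95% interval for 9 tetrapyrrole synthesis genes and 3 antenna genes. Panels show flowers against buds, siliques against flowers and siliques against buds. Synthesis genes are in pathway order, except that SIRB, of the siroheme branch, is placed after the chlorophyll branch. Filled red points mark adjusted p under 0.05 and open grey points mark genes that did not pass. GSA1 to CHLI2 lie between 0.90 and 1.42 in siliques against buds, and CHLM, PORB and CHLP between 0.39 and 0.45. In siliques against flowers this separation is not seen for CHLM (0.78) and PORB (0.96). There GSA1 to CHLI2 lie between 0.75 and 1.26, and CHLP at 0.40.

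In the early and shared part of the pathway, HEMB1 and HEME2 were measured beside GSA1 and HEME1. HEMB1 (AT1G69740), the ALA dehydratase gene acting directly after GSA1, had signals of 236 and 352 in buds, 316 and 352 in flowers, and 533 and 601 in siliques. It was higher in siliques than in buds (log2 change 0.95 ± 0.21, adjusted p = 0.0285). Against flowers its log2 change of 0.75 ± 0.21 did not pass (adjusted p = 0.0600), but it passed with the replicate number as a block (adjusted p = 0.0304), in a fit of only the 4 arrays compared (0.0271) and without buds 1 (0.0270) or buds 2 (0.0280). HEME2 (AT2G40490), the other uroporphyrinogen decarboxylase gene, had signals of 202 and 307 in buds, 223 and 270 in flowers, and 456 and 496 in siliques. It was higher in siliques than in flowers (log2 change 0.93 ± 0.22, adjusted p = 0.0397) and than in buds (0.90 ± 0.22, adjusted p = 0.0390), so both decarboxylase genes rose.

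These calls were also lost in some settings. HEMB1 against buds did not pass without buds 1 (adjusted p = 0.0856) or any 1 flower or silique array (0.0520 to 0.136). HEME2 did not pass against flowers without any 1 flower or silique array (0.105 to 0.188), without the filter (0.0619) or with quantile or cyclic loess normalization (both 0.0542). Against buds HEME2 did not pass in 9 of 17 alternatives (0.0534 to 0.162), among them without buds 1 (0.126) and without any 1 flower or silique array (0.0616 to 0.162).

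In the chlorophyll branch, CHLM, PORB and CHLP were measured beside CHLI2. CHLM (AT4G25080), which methylates magnesium protoporphyrin in the step after magnesium chelatase, had signals of 575 and 642 in buds, 437 and 524 in flowers, and 816 and 848 in siliques. It was higher in siliques than in flowers (log2 change 0.78 ± 0.15, adjusted p = 0.0251), a call lost without any 1 flower or silique array (0.0748 to 0.144). Against buds its log2 change was 0.45 ± 0.15 (0.08 to 0.81, adjusted p = 0.0982), and 0.29 with quantile or 0.21 with cyclic loess normalization. The difference between its change into siliques and its change at flower opening was 1.12 ± 0.27 (adjusted p = 0.0460; lost in 8 of 16 alternatives, range 0.0302 to 0.286).

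PORB (AT4G27440), a light-dependent protochlorophyllide oxidoreductase, had signals of 287 and 142 in buds, 178 and 105 in flowers, and 280 and 272 in siliques. Its replicates in buds and flowers were far apart, with replicate 1 above replicate 2 in both stages, opposite to the other 8 synthesis genes. In siliques against flowers its log2 change of 0.96 ± 0.35 did not pass (adjusted p = 0.119) but passed with the replicate number as a block (0.0439). CHLP (AT1G74470), the geranylgeranyl reductase that supplies the phytyl tail of chlorophyll, had signals of 1586 and 1739 in buds, 1524 and 1780 in flowers, and 1933 and 2441 in siliques. It did not pass in siliques against flowers (log2 change 0.40 ± 0.17, adjusted p = 0.167) or against buds (0.39 ± 0.17, adjusted p = 0.171). Against flowers its change was 0.17 with quantile and 0.11 with cyclic loess normalization, and 0.23 without siliques 2. Against buds it was 0.048 with quantile and −0.011 with cyclic loess normalization, and 0.22 without siliques 2. The 95% interval of CHLI2 in siliques against buds (0.99 to 1.85) did not overlap with those of CHLM (0.08 to 0.81) and CHLP (−0.02 to 0.79). It overlapped with that of PORB (−0.42 to 1.28). In siliques against flowers the interval of CHLI2 (0.83 to 1.69) overlapped with those of CHLM (0.42 to 1.15) and PORB (0.11 to 1.81). There it lay above that of CHLP (−0.0093 to 0.80). The difference between the genes was not tested.

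SIRB (AT1G50170) encodes the ferrochelatase that makes siroheme. It was the only gene of the heme, bilin and siroheme list with a probe set of its own in the probe-to-gene table. Its signals were 104 and 110 in buds, 153 and 167 in flowers, and 148 and 115 in siliques. Alone among the 9 synthesis genes it had a negative log2 change in siliques against flowers, −0.27 ± 0.17 (adjusted p = 0.312). It passed in no comparison, and its log2 change in flowers against buds was 0.54 ± 0.17 (adjusted p = 0.0976). Among 10 listed genes of chlorophyll breakdown 1 had a probe set of its own, the chlorophyll b reductase gene NOL (AT5G04900). It had signals of 120 and 119 in buds, 161 and 118 in flowers, and 151 and 161 in siliques, and passed in no comparison (adjusted p = 0.568 in flowers against buds, 0.574 in siliques against flowers and 0.217 in siliques against buds). None of 7 listed regulators of chlorophyll synthesis genes had a probe set of its own in the probe-to-gene table.

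**Figure D4:**
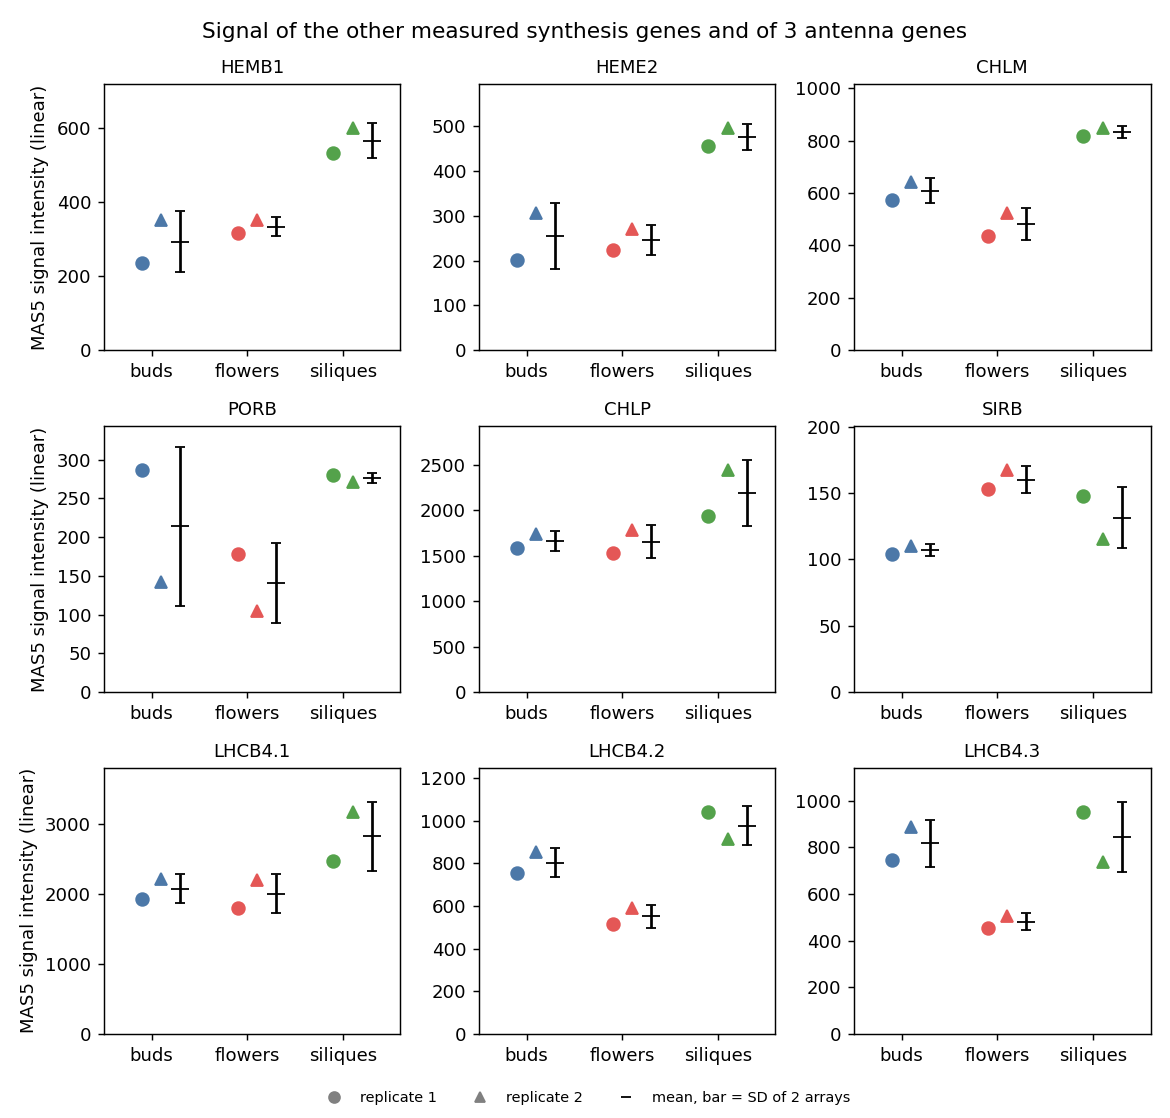
MAS5 signal intensity (linear axes from 0) of 6 further synthesis genes and 3 antenna genes on each of the 6 arrays, by stage, with circles for replicate 1, triangles for replicate 2, and a dash with a bar for the mean and SD of 2 arrays. HEMB1 and HEME2 are highest in siliques, and LHCB4.2 and LHCB4.3 are lowest in flowers.

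Chlorophyll is bound by antenna proteins, and 3 of 17 listed antenna genes had a probe set of their own. All 3 encode versions of the same minor antenna protein of photosystem II. LHCB4.3 had signals of 747 and 888 in buds, 457 and 507 in flowers, and 952 and 737 in siliques. It was lower in flowers than in buds (log2 change −0.75 ± 0.18, adjusted p = 0.0476) and higher in siliques than in flowers (0.79 ± 0.18, adjusted p = 0.0361). LHCB4.2 had a log2 change of −0.54 ± 0.15 in flowers against buds, which did not pass (adjusted p = 0.0819) but passed with quantile (−0.63, 0.0365) and cyclic loess (−0.61, 0.0407) normalization, and was higher in siliques than in flowers (0.81 ± 0.15, adjusted p = 0.0234). LHCB4.1 did not pass in siliques against flowers (0.49 ± 0.18, adjusted p = 0.123). It passed there with the replicate block (0.0306), whereas its change was 0.23 with quantile (adjusted p = 0.213) and 0.19 with cyclic loess (0.261) normalization, and 0.31 without siliques 2 (0.375). In siliques against buds none of the 3 passed, where 15.6% of all tested probe sets were called in either direction. Their log2 changes were 0.04 to 0.44, whereas GSA1, HEME1 and CHLI2 had 1.08 to 1.42. In siliques against flowers the antenna genes had 0.49 to 0.81, and GSA1, HEME1 and CHLI2 had 0.89 to 1.26. The difference between these sets of genes was not tested.

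The antenna calls were lost in some settings. That of LHCB4.3 in flowers against buds was lost in 10 of 17 alternatives: without any 1 bud or flower array (adjusted p = 0.0656 to 0.223), with the replicate block (0.0516), an offset of 1 (0.0510), no filter (0.0681), median normalization (0.0640), no intensity trend (0.0569) and only the 4 arrays compared (0.0517). Those of LHCB4.2 and LHCB4.3 in siliques against flowers were lost without any 1 flower or silique array (0.0540 to 0.178), and that of LHCB4.3 also without the filter (0.0594) and with cyclic loess normalization (0.0617). With the replicate block LHCB4.1 passed in siliques against buds (0.0368).

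The probe sets whose pattern was most like that of each gene were found among 977 other tested probe sets of a single gene with a symbol, by the root mean square difference of centred log2 signals over the 6 arrays. Nearest to GSA1 were HEMB1 (0.13), CRR41 (0.14), MAP1C (0.16), UGT78D1 (0.16) and HEME2 (0.17). Nearest to HEME1 were PRXR1 (0.11), CRR41 (0.12), HEME2 (0.14), the plastid-encoded ribosomal protein gene rps18 (0.17) and LSMT-L (0.18). Nearest to CHLI2 were BGLU15 (0.08), GH3.3 (0.18), CRR41 (0.20), HEME1 (0.20) and GSA1 (0.20). CRR41 (AT1G51100) thus appeared in all 3 sets, at mean signals of 45.1 in buds, 46.3 in flowers and 99.6 in siliques. Its bud and flower means lay below the minimum signal of 50. BGLU15 averaged 58.8 in buds, 62.2 in flowers and 176 in siliques. The differences between GSA1, HEME1 and CHLI2 themselves were 0.20 to 0.22. Among all 12075 tested probe sets, named or not, 173 were closer to GSA1 than HEME1 was, and 191 closer to HEME1 than GSA1 was. Closer to GSA1 than CHLI2 was were 135, and 41 were closer to CHLI2 than GSA1 was. For HEME1 and CHLI2, 132 were closer to HEME1 and 40 closer to CHLI2.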

How the data were processed

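For each probe set the authors deposited a linear signal intensity computed with MAS5, per the submitters' processing notes; version, settings and detection calls are not given in the sources used here. Every array has a 2% trimmed mean of 100.01. Of 22810 probe sets, 64 controls were left out, and 12075 with a signal of at least 50 on at least 2 arrays were tested. Probe sets were named through their gene IDs: 13513 had a single gene, of which 13436 matched the RefSeq table (TAIR10.1), 503 had several and 8730 had none listed. For a gene with several probe sets the rule was to use the brightest. Probe sequences were not used, so cross-hybridisation between close copies such as GSA1 and GSA2 was not tested.

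Log2(signal + 10) values of all 6 arrays were fitted with limma 3.58.1 (R 4.3.3; lmFit, contrasts.fit, eBayes with an intensity trend; 3 residual degrees of freedom, median prior 3.61). The two-sided p of each contrast was Benjamini-Hochberg adjusted over all tested probe sets, and calls are at an adjusted p under 0.05; ± is the SD of 2 arrays after a signal and the SE after a log2 change. Precision is limited by the number of arrays. The members and gene lists were chosen with earlier results of these data known; by rule, every list gene that passed the filter and the 5 nearest patterns per gene are named. The labels say that the entire experiment was run again for replicate 2, so replicate numbers pair the samples; the correlation of replicate differences was 0.34 between buds and flowers, 0.17 between flowers and siliques and −0.014 between siliques and buds. Alternatives were other offsets, filters, normalizations and variance priors, only the arrays compared, a replicate block, and each array left out.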

Additional observations from a re-analysis of the deposited data

How the results depend on the processing

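GSA1, HEME1 and CHLI2 kept a positive change in siliques against both other stages in all 17 alternatives. Their log2 changes in siliques against flowers with 1 array left out ran from 1.07 to 1.46 for CHLI2, 1.19 to 1.25 for HEME1 and 0.76 to 1.03 for GSA1, and against buds from 1.31 to 1.53, 0.82 to 1.33 and 0.93 to 1.55. In siliques against flowers GSA1 did not pass with an offset of 1 (0.92), no filter or no intensity trend (0.89 each), quantile (0.87) or cyclic loess normalization (0.81). In flowers against buds, with 1 array left out, CHLI2 ran from −0.036 to 0.35, HEME1 from −0.40 to 0.11, HEMB1 from −0.074 to 0.48, HEME2 from −0.31 to 0.27, CHLP from −0.12 to 0.10, NOL from −0.020 to 0.40 and LHCB4.1 from −0.20 to 0.088; with median normalization HEME2 (0.024) and CHLP (0.034) turned positive. NOL in siliques against flowers ran from −0.044 to 0.37 with 1 array left out, and PORB and LHCB4.3 in siliques against buds from −0.052 to 0.91 and −0.14 to 0.22. In siliques against buds CHLP turned negative with cyclic loess (−0.011), and LHCB4.3 with quantile (−0.15) and cyclic loess (−0.21). None of these turned values passed.

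Of the synthesis genes 5 were called in siliques against flowers, but 3 without the filter and with quantile or cyclic loess normalization, 7 with the replicate block and 0 to 6 with 1 array left out; against buds 1 to 5. Over all tested probe sets, calls with 1 array left out numbered 580 to 1115 in flowers against buds (1287 with all arrays), 251 to 2036 in siliques against flowers (1773; 1162 without the filter) and 871 to 1808 in siliques against buds (1878). A fit without 1 array assumes that the lone array of a stage varies like the others. Calls over all tested probe sets in siliques against flowers numbered 2190 with the replicate block, 1441 with quantile and 1581 with cyclic loess normalization. The replicate block left the calls of GSA1, HEME1 and CHLI2 in place (adjusted p = 0.0207, 0.0125 and 0.0102 in siliques against flowers); the listed genes whose call it changed are named above. The cause of the changes was not tested.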

Other observations

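In buds and in flowers, 8 of the 9 measured synthesis genes had a higher signal in replicate 2 than in replicate 1, PORB being the exception in both stages, and in siliques 6 of 9 did. Of the 9 genes, 5 had their lowest stage mean in flowers, namely HEME1, HEME2, CHLM, PORB and CHLP, though none of them passed in flowers against buds. The flower and bud means were close for HEME2 (247 and 255) and CHLP (1652 and 1663). How many of all tested probe sets show these patterns was not counted.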
